A study of Mus musculus with 8 samples.

Results

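The 10 genes described here, H2-K1, H2-D1, H2-T23, B2m, Tap1, Tap2, Tapbp, Psmb8, Psmb9 and Nlrc5, form the core of the MHC class I antigen presentation pathway. They were picked by gene name among the 54532 genes of the count table, by a rule that uses no measured value but that was written with earlier results of these data known, and all 10 were among the 17195 genes that passed the filter on low counts. Bulk RNA sequencing was done on the cortex of 4 PS19 mice and 4 Adrb1+/m;PS19 mice, all 8 mo old and on a C57BL/6 background, with 1 library per mouse. Both genotypes carried the PS19 transgene, human tau with the P301S mutation under the mouse prion protein promoter, and Adrb1+/m;PS19 mice carried in addition 1 copy of the A187V mutation in Adrb1, the gene of the β1-adrenergic receptor. Mice without the transgene were not analysed here, so that every value below belongs to the cortex of a mouse that carried the mutant tau transgene. The study used males unless stated otherwise and littermates as controls, but the labels give no litter.

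MHC class I molecules carry peptides from the inside of a cell to its surface, where CD8 T cells and natural killer cells read them. The peptides are cut by the proteasome, which can exchange its constitutive catalytic subunits for inducible ones, then pumped into the endoplasmic reticulum by the TAP transporter and loaded onto a heavy chain that is paired with β2-microglobulin. Interferons raise the transcription of most of these genes, and in the brain microglia, endothelial cells and, at lower levels, astrocytes and some neurons express them.

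The promoters of the 3 heavy chain genes and of B2m are shown. Of the member windows searched, only these matched any of 3 DNA motifs through which the pathway is known to be switched on. H2-K1 and H2-D1 encode the classical heavy chains of the b haplotype, H2-T23 the nonclassical heavy chain Qa-1, and B2m the light chain. The sequences are RefSeq promoter windows of build GRCm38.p6, 5′ to 3′ on the gene's strand, from 250 bases before to 50 after the start site. Capitals mark matches on either strand to 3 motifs: AANNGAAA, the core bound by interferon regulatory factors, GGGGA joined directly to TTCCCC, a kB site bound by NF-kB proteins, and TGACG followed by ATTGG after 10 to 30 bases, the order of half-sites in the SXY module through which Nlrc5 acts. The windows are chr17:34000284-34000583 on the minus strand for H2-K1, chr17:35262844-35263143 on the plus strand for H2-D1, chr17:36032652-36032951 on the minus strand for H2-T23 and chr2:122147437-122147736 on the plus strand for B2m.
H2-K1: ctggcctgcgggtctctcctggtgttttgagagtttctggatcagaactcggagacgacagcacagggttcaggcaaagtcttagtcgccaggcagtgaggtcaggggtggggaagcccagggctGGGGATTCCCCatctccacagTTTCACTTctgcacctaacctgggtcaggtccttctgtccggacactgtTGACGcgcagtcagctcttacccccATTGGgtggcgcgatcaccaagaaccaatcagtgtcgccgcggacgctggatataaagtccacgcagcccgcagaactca
H2-D1: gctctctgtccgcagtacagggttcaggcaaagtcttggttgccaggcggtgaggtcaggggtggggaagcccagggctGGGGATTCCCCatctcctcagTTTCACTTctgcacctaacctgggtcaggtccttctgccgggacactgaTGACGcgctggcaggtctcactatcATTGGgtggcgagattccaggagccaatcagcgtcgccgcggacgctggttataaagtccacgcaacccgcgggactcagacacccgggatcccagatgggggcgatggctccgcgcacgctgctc
H2-T23: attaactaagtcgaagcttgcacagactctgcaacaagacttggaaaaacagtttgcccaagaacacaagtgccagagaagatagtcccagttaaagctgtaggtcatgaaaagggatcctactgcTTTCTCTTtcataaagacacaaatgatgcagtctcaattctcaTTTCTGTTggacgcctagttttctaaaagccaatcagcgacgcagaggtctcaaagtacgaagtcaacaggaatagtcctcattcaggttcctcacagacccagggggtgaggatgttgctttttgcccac
B2m: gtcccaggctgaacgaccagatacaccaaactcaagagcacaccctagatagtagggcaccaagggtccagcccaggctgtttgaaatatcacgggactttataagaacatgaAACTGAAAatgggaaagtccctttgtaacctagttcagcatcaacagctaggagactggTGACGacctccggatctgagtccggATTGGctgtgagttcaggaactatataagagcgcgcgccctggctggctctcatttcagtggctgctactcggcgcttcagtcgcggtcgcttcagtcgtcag

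H2-K1 and H2-D1 carried all 3 motifs in the same order, with the kB site first, the interferon core next and the half-sites closest to the start. B2m had the interferon core and the half-sites but no match to the exact kB sequence searched. Other forms of kB site were not searched for. H2-T23 had 2 matches to the interferon core alone. Among the 8 members with a RefSeq window, 4 held the interferon core, against 23.9% of all 32851 windows. The exact kB sequence was in 2 member windows and in 10 windows of the genome (0.0304%). That share is of a single fixed sequence, so no excess of kB sites in general can be read from it. The windows holding it, of H2-K1 and H2-D1, are also alike in the bases around it. The pair of half-sites was in 3 member windows and in 244 of the genome (0.743%). None of the 3 letter patterns was in the windows of Tap1, Psmb9, Tapbp or Psmb8, and Tap1 and Psmb9, which are transcribed away from each other, share 275 bases of their windows. Nlrc5 and Tap2 had no window. RefSeq and the deposited annotation place some starts apart, by 364 bases for H2-D1, 154 for H2-T23, 434 for Psmb9, 474 for Psmb8 and 3579 for Tapbp, so a match describes a RefSeq window only.

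**Figure D1:**
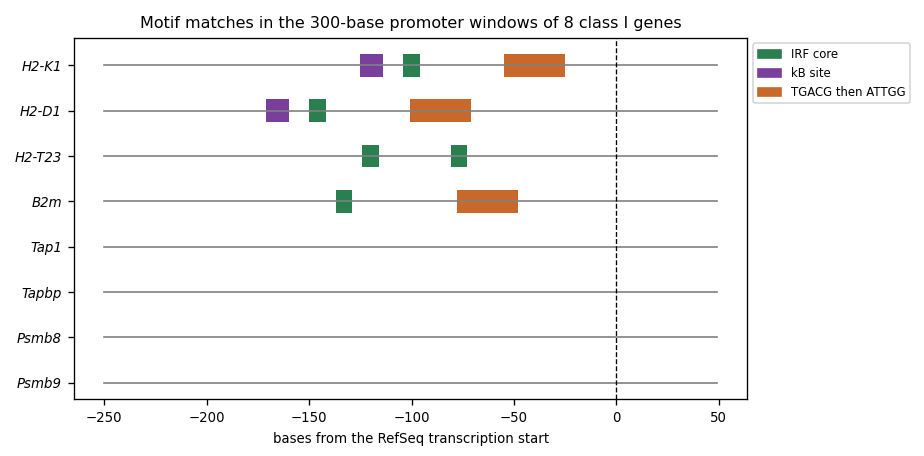
Positions of matches to the 3 motifs (coloured blocks, the half-site pair drawn with the bases between) in the RefSeq promoter windows of 8 class I genes, in bases from the start site. H2-K1 and H2-D1 hold all 3 motifs, B2m holds 2, H2-T23 holds the interferon core at 2 positions, and the other windows hold none.

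The 8 libraries had 14653222 to 21223754 counts per mouse in PS19 and 16865651 to 20802158 in Adrb1+/m;PS19 mice. Within a genotype, libraries differed beyond counting noise in every pair (chi-square 4.82 to 10.1 per degree of freedom), and each was counted as 1 mouse. Markers of cortical neurons fitted the labelled tissue, with all 11 listed genes expressed and a summed level of 4323 to 4994 CPM in every mouse (CPM is the count scaled to the library total with TMM factors). Adrb1 was detected at 30.7 to 41.2 CPM in all mice and did not pass the test (log2 fold change −0.07, SE 0.09, edgeR adjusted p = 0.9996). Its gene count does not separate mutant from wild-type transcripts, and so does not check the genotype labels.

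B2m was the most abundant of the 10 genes per length. At 134.1 CPM per kb of annotated exon, the mean over all mice, it stood above H2-D1 (28.1) and H2-K1 (18.3) in 8 of 8 mice, and H2-D1 stood above H2-K1 in 8 of 8. Tapbp (8.79 CPM per kb) and H2-T23 (8.04) followed, with ranges that overlapped and Tapbp higher in 6 mice. Tap2 (1.90), Psmb8 (1.32), Tap1 (0.960) and Psmb9 (0.689) came next, each overlapping its neighbour in the range over mice. Nlrc5, the transactivator of the pathway, was lowest, at 0.303 CPM per kb. These lengths merge all annotated exons of a gene, so a gene with a rarely used long exon is placed too low in the order.

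H2-K1 was between 34.3 and 63.5 CPM. The PS19 mice m677, m668, m665 and m659 had 54.4, 34.3, 40.4 and 62.0 CPM, and the Adrb1+/m;PS19 mice m671, m661, m660 and m658 had 38.3, 35.8, 63.5 and 53.3 CPM. Each genotype held 2 mice above 53 and 2 below 41, so the genotypes overlapped over nearly their whole range. The means were 47.8 ± 12.7 (SD, n = 4) and 47.7 ± 13.04 (SD, n = 4) CPM. The gene lies at chr17:33996017-34000333 on the minus strand (GRCm38).

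H2-D1, at chr17:35262730-35267499 on the plus strand, had the same high and low mice. It had 81.5, 58.5, 49.1 and 99.6 CPM in PS19 mice m677, m668, m665 and m659, and 57.6, 55.5, 94.9 and 82.9 CPM in Adrb1+/m;PS19 mice m671, m661, m660 and m658. The 4 mice with the most H2-D1 were the same as for H2-K1, 2 of each genotype. The genotype means were 72.2 ± 22.8 and 72.7 ± 19.3 CPM (SD, n = 4 each). Of the 100-base stretches of H2-D1 transcripts, 4.64% also occur in another gene, and for H2-T23 7.28%, so part of their counts may belong to related class I genes.

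B2m, at chr2:122147686-122153083 on the plus strand, had 139.6, 92.0, 84.0 and 143.9 CPM in PS19 mice m677, m668, m665 and m659. In the Adrb1+/m;PS19 mice m671, m661, m660 and m658 it had 95.6, 79.7, 149.7 and 138.1 CPM. No mouse was between 95.6 and 138.1 CPM, and each genotype had 2 mice on either side of that gap. The SD on the log2 scale within a genotype was 0.42 for B2m, larger than for 99.4% of the 1625 genes of like mean level. For H2-D1 it was 0.42, larger than for 99.3% of 2300 genes, and for H2-K1 0.39, larger than for 99.0% of 2583 genes.

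H2-T23, at chr17:36029773-36032855 on the minus strand, did not share this spread. It had 25.9, 25.3, 20.7 and 25.1 CPM in PS19 mice m677, m668, m665 and m659, and 19.6, 25.1, 22.1 and 22.1 CPM in Adrb1+/m;PS19 mice m671, m661, m660 and m658. The highest value was 1.32 times the lowest, against 1.85 for H2-K1, 2.03 for H2-D1 and 1.88 for B2m. Its within-genotype SD of 0.15 exceeded that of 69.3% of 2605 like genes, and of the 4 mice with the most B2m only m677 and m659 were among the 4 with the most H2-T23.

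**Figure D2:**
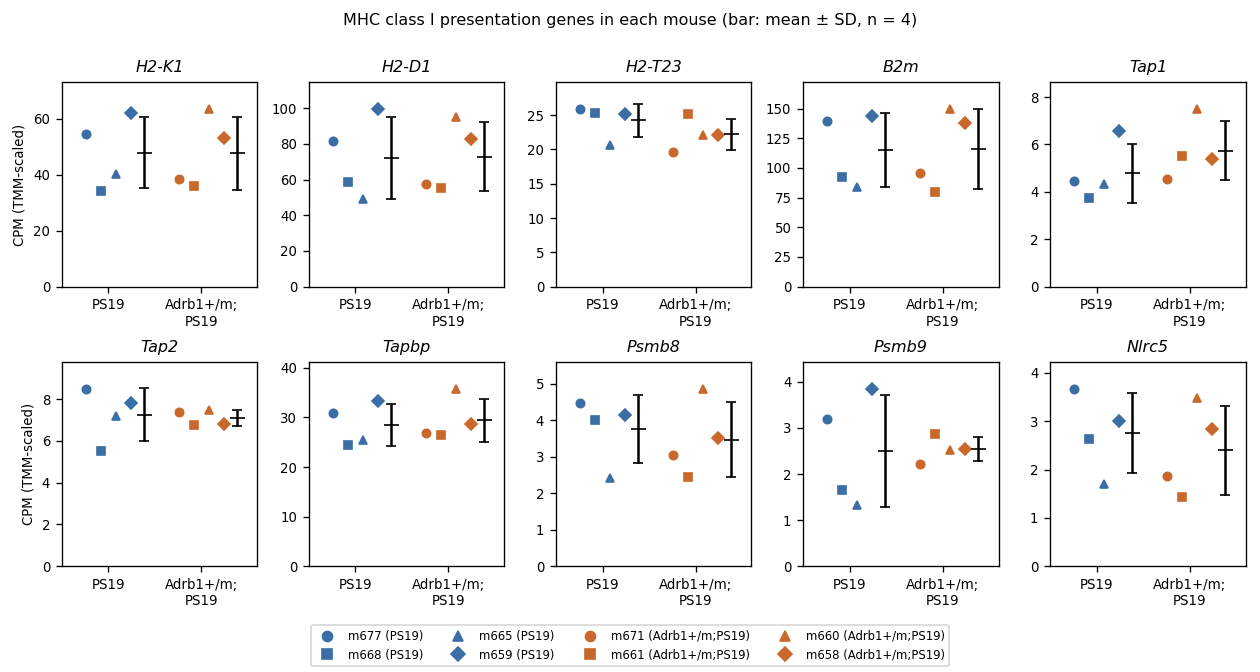
Level of each of the 10 class I genes in each mouse, in CPM on a separate axis per gene, with points for mice and bars for the genotype mean ± SD (n = 4). The genotypes overlap for every gene, and H2-K1, H2-D1 and B2m show 2 high and 2 low mice in each genotype.

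Tap1 and Tap2 encode the paired subunits of the peptide transporter and Tapbp encodes tapasin, which bridges it to the empty heavy chain. Tapbp, at chr17:33915899-33929288, had 31.0, 24.4, 25.4 and 33.2 CPM in PS19 mice m677, m668, m665 and m659. It had 26.8, 26.5, 35.8 and 28.6 CPM in Adrb1+/m;PS19 mice m671, m661, m660 and m658, and its 4 highest mice were those of B2m. Tapbp shares 3421 bases on the same strand with Zbtb22, which had 561 to 807 counts per mouse. How many reads came from the shared bases is not known. Tap1, at chr17:34187553-34197225, ranged from 3.73 CPM in m668 to 7.50 in m660, and Tap2, at chr17:34203527-34216321, from 5.52 in m668 to 8.51 in m677. For Tap1 the genotype means were 4.78 ± 1.24 in PS19 and 5.74 ± 1.25 CPM in Adrb1+/m;PS19 mice, and for Tap2 7.26 ± 1.28 and 7.11 ± 0.389 CPM (SD, n = 4 each). Neither gene divided the mice as B2m did, and each shared 3 of its 4 highest mice with it.

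Psmb8 and Psmb9 encode inducible catalytic subunits of the immunoproteasome, which take the places of Psmb5 and Psmb6. Psmb8, at chr17:34197721-34201454, had 4.47, 4.00, 2.41 and 4.16 CPM in PS19 mice m677, m668, m665 and m659. In Adrb1+/m;PS19 mice m671, m661, m660 and m658 it had 3.06, 2.44, 4.87 and 3.51 CPM. The lowest values, in m665 and m661, came from the libraries with the most counts. Psmb9, at chr17:34181988-34187764, rested on 24 to 64 counts per mouse and ranged from 1.32 CPM in m665 to 3.85 in m659, both PS19 mice. Its SD was 1.21 CPM in PS19 and 0.267 CPM in Adrb1+/m;PS19 mice, around means of 2.50 and 2.54 CPM (n = 4 each), and the difference in spread was not tested.

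Against their constitutive counterparts these subunits were scarce. Per length, Psmb8 was 1.27% to 2.85% of Psmb5 over the 8 mice, with 2.09 ± 0.557% in PS19 and 1.89 ± 0.722% in Adrb1+/m;PS19 mice (SD, n = 4 each). Psmb9 was 1.02% to 3.06% of Psmb6, with 1.91 ± 0.960% and 2.08 ± 0.325%. Psmb10, the remaining inducible subunit, was at 90.1% to 120.7% of its counterpart Psmb7, at 25.4 to 33.7 CPM. These ratios depend on lengths that merge all annotated exons, 1705 bases for Psmb10 and 3421 for Psmb7. Without length, the mean over all mice was 28.3 CPM for Psmb10 and 53.5 for Psmb7. It was 3.61 for Psmb8 and 60.6 for Psmb5, and 2.52 for Psmb9 and 65.1 for Psmb6. The constitutive subunits varied little, with the highest mouse 1.30 times the lowest for Psmb5, 1.18 for Psmb6 and 1.28 for Psmb7, against 2.02 for Psmb8 and 2.92 for Psmb9. The share of counting error in the spread of the low genes was not tested.

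Nlrc5, at chr8:94434356-94527272 on the plus strand, encodes the transactivator that binds the class I promoters through the SXY module. It had 3.67, 2.62, 1.70 and 3.01 CPM in PS19 mice m677, m668, m665 and m659, and 1.86, 1.44, 3.47 and 2.83 CPM in Adrb1+/m;PS19 mice m671, m661, m660 and m658. Its 4 highest mice were those of B2m, with m668 next. These values rest on 30 to 62 counts per mouse. Its counterpart for class II genes, Ciita, lay at 2.25 to 3.79 CPM with m659 highest, m661 lowest and 1.69-fold between them.

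None of the 10 genes passed the test between genotypes. With edgeR's quasi-likelihood test, 0 of 10 had an unadjusted p-value under 0.05, where 2.80% of all genes tested had one. DESeq2 called 0 of 10 (1.65% of all genes with at least 1 count), and limma-voom 0 of 10 (2.86% of all genes tested). The adjusted p-value was 0.9996 for each gene with Benjamini-Hochberg adjustment over all genes (edgeR), and no gene of the table passed at 0.05 after adjustment. No member had genotypes that did not overlap, as 2.02% of all genes did. The log2 fold changes of Adrb1+/m;PS19 over PS19 were positive for 5 of the 10 genes, and their median was 0.0039, beside 0.00046 for all genes. In a bulk cortex, fewer cells of a type and less RNA per cell cannot be told apart, so these values compare RNA per tissue.

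The size of difference that these mice leave possible varied between the genes. For H2-K1 the log2 fold change was −0.0033 (SE 0.19, 95% interval −0.41 to 0.41, or 0.751-fold to 1.33-fold), and for B2m 0.01 (SE 0.20, −0.42 to 0.44). H2-D1 gave 0.01 (SE 0.21, −0.43 to 0.45). H2-T23, with its small spread, had the narrowest interval, −0.33 to 0.09 around −0.12 (SE 0.10). Tap1 had the smallest p-value of the 10 (log2 fold change 0.26, SE 0.20, −0.17 to 0.70). Without PS19 mouse m659 its log2 fold change was 0.45, which passed at an unadjusted p of 0.05 but had an adjusted p of 0.9999 (edgeR). Tapbp (0.04, SE 0.12) and Tap2 (−0.03, SE 0.15) were close to 0. The low genes had the widest intervals, −0.65 to 0.43 for Psmb8, −0.63 to 0.69 for Psmb9 and −0.85 to 0.46 for Nlrc5. These p-values set the difference between the genotypes against the spread between single mice of each genotype.

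**Figure D3:**
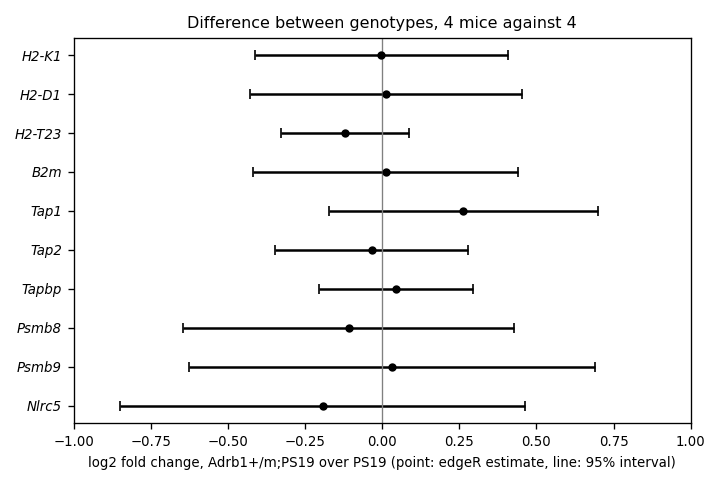
Log2 fold change of Adrb1+/m;PS19 over PS19 for each class I gene, with the edgeR estimate as a point and its 95% interval as a line (n = 4 mice per genotype). All 10 intervals contain 0, the narrowest for H2-T23 and the widest for Psmb9 and Nlrc5.

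Several members had their high values in the same mice, across both genotypes. B2m, H2-K1, H2-D1, Tapbp and Nlrc5 had the same 4 highest mice, the PS19 mice m677 and m659 and the Adrb1+/m;PS19 mice m660 and m658. Beside B2m these were 4 of the other 9 members, where 3.84% of all genes tested had those 4 mice highest. Tap1, Tap2, Psmb8 and Psmb9 shared 3 of the 4 and H2-T23 shared 2, but the shares of all genes that do so were not counted. For H2-K1, H2-D1, H2-T23 and B2m the values over mice fell into separate sets, with a gap over 0.4 of the range, and no correlation is given for them.

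For the other 6 members, Pearson's r of log2 CPM over the 8 mice was positive in all 15 pairs, from 0.228 for Tap2 with Psmb8 to 0.956 for Psmb8 with Nlrc5, with a mean of 0.546. All 15 remained positive with the genotype means subtracted and also without the 2 libraries with the most counts. They did not all do so in smaller sets of mice. Among the 4 Adrb1+/m;PS19 mice, 4 pairs that include Psmb9 were negative, with r of −0.690 for Tap2, −0.323 for Psmb8, −0.255 for Nlrc5 and −0.053 for Tapbp, and Tap1 with Tap2 had r = −0.147 without the 2 mice farthest from the median of Tap1. After Benjamini-Hochberg adjustment over the 15 pairs, 1 passed, Psmb8 with Nlrc5 (r = 0.956, exact permutation p = 0.000372, adjusted p = 0.00558; Spearman's rho = 0.929, p = 0.00223, adjusted p = 0.0335, 2-sided). Without the 2 mice farthest from the median of Psmb8, m665 and m661, r was 0.902. Tap1 with Tapbp came next (r = 0.838, exact permutation p = 0.0102, adjusted p = 0.0766; rho = 0.786, adjusted p = 0.138), but r was 0.578 without the 2 mice farthest from the median of Tap1. For Tap1 and Nlrc5 r was 0.301 (exact permutation p = 0.461).

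Both genes of the strongest pair were low in the deepest libraries. The correlation with total counts was −0.775 for Psmb8 (exact permutation p = 0.0248, adjusted p = 0.149 over 6 members) and −0.680 for Nlrc5 (adjusted p = 0.206). The libraries with the most counts, m665 and m661, had the lowest Psmb8 and Nlrc5, and without them r with total counts was −0.045 for Psmb8 and 0.118 for Nlrc5. The pair itself kept r = 0.902 without these libraries. B2m (79.7 CPM in m661, 84.0 in m665) and H2-D1 (55.5 and 49.1) were also lowest in them. H2-K1, H2-T23, Tap1, Tap2, Tapbp and Psmb9 were not. The mean centred log2 CPM was lowest there for interferon-stimulated genes (−0.48 and −0.58) and disease-associated microglia markers (−0.90 and −0.69), but not for class II genes. The part of depth in these values was not tested.

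The other genes of the pathway also showed no genotype difference past the test. Of 23 further class I genes, 20 were tested and 0 passed at an unadjusted p of 0.05 in either direction with edgeR, with a median log2 fold change of −0.02. The smallest p-value belonged to Psme1, a subunit of the proteasome activator (log2 fold change 0.17, SE 0.09). H2-T3 had 0 counts in every mouse, and H2-Q10 and H2-M2 did not pass the filter. H2-Q4, a nonclassical heavy chain gene named after its values were seen, had 7.84, 4.83, 5.52 and 7.41 CPM in PS19 mice m677, m668, m665 and m659, and 4.02, 4.79, 8.12 and 6.23 CPM in Adrb1+/m;PS19 mice m671, m661, m660 and m658, with the same 4 highest mice as B2m. So had H2-Q1 and Pdia3, 3 of the 20 in all. H2-T22, a nonclassical gene of the same cluster as H2-T23, ranged only from 18.1 to 23.1 CPM, and its lowest mouse, m665, was also the lowest PS19 mouse for H2-T23. Psmb5, Psmb6 and Psmb7 had log2 fold changes of 0.06, −0.11 and −0.00, none past the test. Of 10 class I-like heavy chains and receptors, 6 were tested and 0 passed, Cd1d1 having the smallest p-value (log2 fold change 0.70, SE 0.39, on 6 to 22 counts).

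Among 26 regulators of class I transcription, 0 were higher and 1 was lower in Adrb1+/m;PS19 mice at an unadjusted p of 0.05, against 1.42% and 1.37% of all genes. It was Nfya, which encodes a subunit of the factor that binds the ATTGG half-site, with a log2 fold change of −0.17 (SE 0.07, edgeR adjusted p = 0.9996). Stat3, Irf8, Ifngr1 and Nfkb1 of this list had the same 4 highest mice as B2m. Irf8, an interferon regulatory factor of microglia and other myeloid cells, had 13.5, 8.84, 8.59 and 14.5 CPM in PS19 mice m677, m668, m665 and m659, and 10.4, 6.56, 13.9 and 14.4 CPM in the Adrb1+/m;PS19 mice m671, m661, m660 and m658. Rfx5, Rfxap and Rfxank, which act with Nlrc5 at the SXY module, varied by 1.25-fold, 1.22-fold and 1.38-fold over all mice.

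Most interferon-stimulated genes shared the high mice of B2m. Of 34 tested, 22 had its 4 highest mice, and 0 passed the test between genotypes (median log2 fold change −0.03, smallest p-value for Parp14, at 0.32, SE 0.22). The mean centred log2 CPM of the list was 0.43, −0.07, −0.58 and 0.28 in PS19 mice m677, m668, m665 and m659, and −0.29, −0.48, 0.42 and 0.29 in Adrb1+/m;PS19 mice m671, m661, m660 and m658. Nlrc5 correlated with it across mice (r = 0.963, exact permutation p = 0.000273, adjusted p = 0.0246 over 90 relations, 0.949 without the 2 farthest mice). Spearman's rho was 0.952 with an adjusted p of 0.103 (exact permutation). Psmb8 correlated with the same list (r = 0.923, adjusted p = 0.0402 by exact permutation, 0.776 without the 2 farthest mice, rho = 0.905, adjusted p = 0.137).

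**Figure D4:**
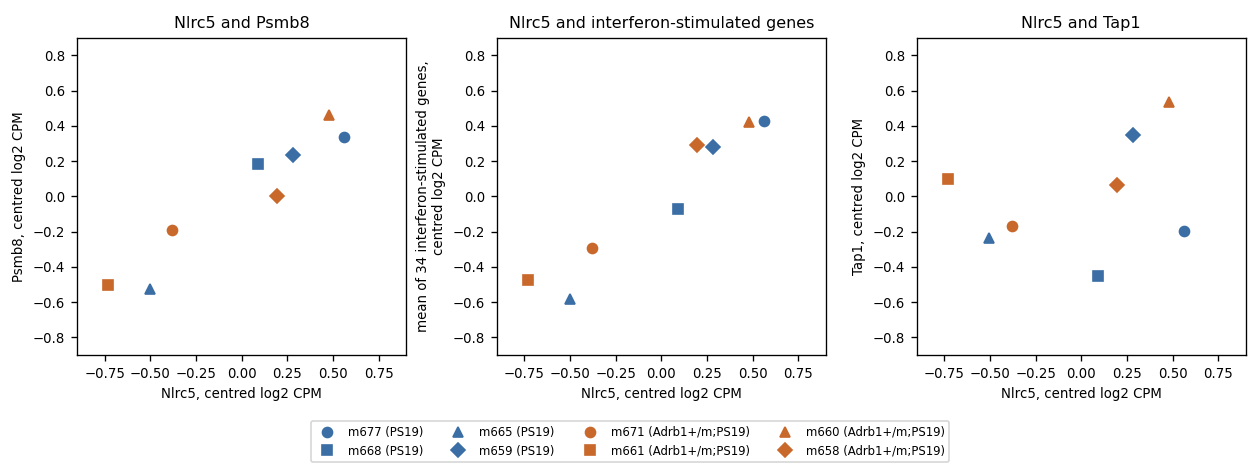
Centred log2 CPM of Nlrc5 (horizontal) against Psmb8, the mean of the interferon-stimulated genes and Tap1 (vertical), 1 point per mouse, coloured by genotype. Nlrc5 rises with Psmb8 (r = 0.956) and with the interferon list (r = 0.963), while the points for Tap1 scatter (r = 0.301).

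The 90 relations were those of 6 members with 15 lists of pathway and cell type genes. By exact permutation, 19 had an unadjusted Pearson p under 0.05, 5 an adjusted p under 0.05, and 0 an adjusted Spearman p under 0.05. Beside both interferon relations these were Nlrc5 with the regulators (r = 0.950, adjusted p = 0.0346, 0.868 without the 2 farthest mice), Psmb8 with the regulators (r = 0.927, adjusted p = 0.0346, 0.836 without them) and Tapbp with class II pathway genes (r = 0.929, adjusted p = 0.0346, 0.971 without them). Class II genes, which present peptides taken up from outside the cell, had the same 4 highest mice as B2m for Cd74, H2-Aa, H2-Ab1 and H2-DMb1, 4 of 9 tested. None passed between genotypes, with H2-Aa at the smallest p-value (log2 fold change −0.48, SE 0.34).

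The genes most like the mean of the 10 members, by Pearson's r over 8 mice among 17185 other genes, were Cd74, Arhgef26, Clu, Anxa3 and Fcgr2b, with r from 0.981 to 0.991, used for ranking only because the mean falls into separate sets of mice. Cd74, the invariant chain of class II, had 24.8, 7.04, 6.56 and 28.9 CPM in PS19 mice m677, m668, m665 and m659, and 8.64, 8.19, 25.1 and 17.7 CPM in the Adrb1+/m;PS19 mice m671, m661, m660 and m658. Clu encodes the chaperone clusterin and Fcgr2b an inhibitory antibody receptor. All 5 had the same 4 highest mice as B2m and overlapping genotypes, which their choice by likeness to the members' mean largely fixed in advance. Their log2 fold changes were from −0.17 to 0.02.

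Glial markers moved across the same mice. Of 14 disease-associated microglia markers, 13 had the 4 highest mice of B2m, and their summed level was 1763 to 2833 CPM in PS19 and 1807 to 2716 CPM in Adrb1+/m;PS19 mice. Most of that sum was Apoe, at 1362 to 2166 CPM with 1.59-fold between the lowest and the highest mouse, while Cst7, Clec7a and Itgax, each below 14 CPM, varied by 25.7-fold, 20.1-fold and 11.0-fold. Of 9 reactive astrocyte markers tested, 6 did, with summed levels of 355.8 to 1100 and 318 to 1116 CPM. Gfap, the astrocyte filament gene and the most abundant of that list, had 748, 257, 220 and 827 CPM in PS19 mice m677, m668, m665 and m659, and 354, 182, 838 and 752 CPM in Adrb1+/m;PS19 mice m671, m661, m660 and m658. Homeostatic microglia markers did so in 6 of 12 genes, with sums of 408 to 610 and 398 to 602 CPM. None of these 3 lists held a gene past the test between genotypes. The part of glial cells in the spread of the class I genes was not tested.

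**Figure D5:**
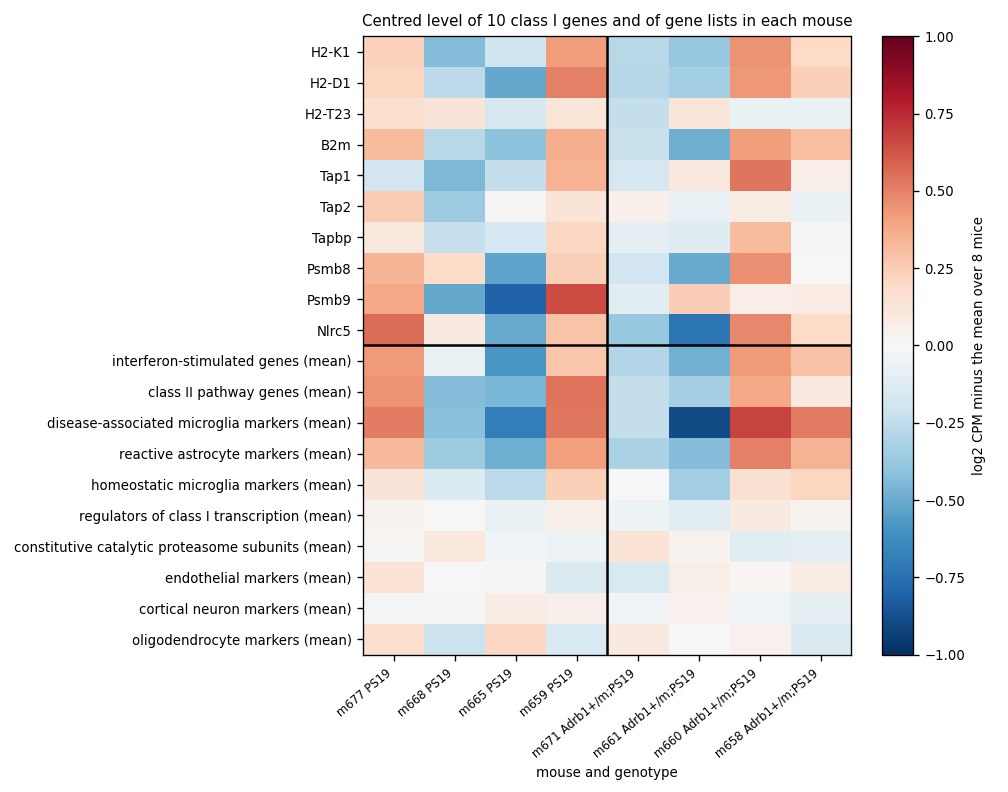
Centred log2 CPM (level minus the mean over 8 mice) of the 10 class I genes and of the means of 10 gene lists, one column per mouse and with a line between the genotypes. H2-K1, H2-D1, B2m, Tapbp, Psmb8 and Nlrc5 are above their mean in m677, m659 and m660 and below it in m665, m671 and m661. So are the lists of interferon-stimulated, class II, disease-associated microglia, reactive astrocyte and regulator genes. Homeostatic microglia markers have the same signs but are near 0 in m671 (−0.00055).

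The other cell type lists were counted in the same way. None of the 12 endothelial, 7 pericyte and mural, 6 border macrophage, 8 choroid plexus, 5 blood, 11 cortical neuron and 6 oligodendrocyte markers tested, and none of the 3 constitutive proteasome genes, had the 4 highest mice of B2m. The mean centred log2 CPM of the border macrophage and monocyte markers nevertheless had the 4 highest mice of B2m, at 0.63 in m660, 0.17 in m658, 0.096 in m659 and 0.057 in m677, with m668 next at 0.048. Its correlation with Nlrc5 was 0.695 (exact permutation p = 0.0415, adjusted p = 0.207 over the 90 relations, rho = 0.762). Endothelial markers summed to 367 to 441 CPM in PS19 and 376 to 443 CPM in Adrb1+/m;PS19 mice. The defining markers of CD8 T cells, which read class I molecules, were at or near 0, with at most 7 counts in any mouse for Cd3e and Cd8a, at most 3 for Cd8b1 and at most 1 for Cd3d. Of 13 T and natural killer cell markers only Cd4, Trbc2 and Cd52 passed the filter, and Cd52 had the 4 highest mice of B2m. Among the cell type lists, genotype calls at an unadjusted p of 0.05 (edgeR) fell in the cortical neuron list alone. Of its 11 genes tested, 1 was higher in Adrb1+/m;PS19 mice (Gad2) and 3 were lower (Slc17a7, Tbr1 and Neurod6). Of all genes tested, 1.42% were higher and 1.37% lower. Each of these markers had an adjusted p of 0.9996 (edgeR), and the list was not tested as a set.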

How the data were processed

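Total RNA of mouse cortex was sequenced with paired reads, 1 library per mouse. The authors aligned reads to GRCm38/mm10 with HISAT2 2.0.5, counted them per Ensembl gene with featureCounts 1.5.0-p3 and deposited these raw counts without normalization. Settings for strand and for reads that map to several places are not given in the sources used here, so overlapping genes and near-identical copies are uncertain. The authors' own comparison used DESeq2 1.20.0.

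Genotypes were taken from the labels. Genes were filtered with filterByExpr, scaled with TMM factors and compared by edgeR's quasi-likelihood test (edgeR 4.0.16 in R 4.3.3, 2-sided, genotype as the only term), with Benjamini-Hochberg adjustment. The SE is the log2 fold change divided by the square root of F. Log2 CPM used a prior count of 2. Correlations used exact permutation over all pairings (scipy 1.17.1). DESeq2 1.42.0 and limma-voom (limma 3.58.1) were alternatives, beside other filters, size factors and each mouse left out. Shared 100-base stretches were taken from GENCODE M21 transcripts, and promoters from RefSeq.

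Named genes were the 10 members, the genes of each other pathway list with an unadjusted p under 0.05 or else the smallest p, the 5 genes most like the members' mean, and Psmb5, Psmb6, Psmb7, Psmb10 and Adrb1. Other names were chosen after their values were seen, as was the limit of 0.4 of the range, with at least 3 mice on each side, for separate sets. The members and lists were chosen with earlier results of these data known.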

Additional observations from a re-analysis of the deposited data

Results flagged for a closer look

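In 3 of 56 groups of 4 mice, 1 mouse stood farther from the others than Dixon's 95% limit allows, and chance gives about 1 in 20. H2-T23 was 20.7 CPM in PS19 mouse m665, and 25.1 to 25.9 CPM in the other PS19 mice. The mean centred log2 CPM of the T and natural killer cell markers (Cd4, Trbc2 and Cd52) was −0.78 in Adrb1+/m;PS19 mouse m661, and 0.32 to 0.34 in the other mice of that genotype. The choroid plexus score was 1.89 in Adrb1+/m;PS19 mouse m658 and −0.79 to −0.35 in the others of its genotype.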

How the results depend on the processing

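No paired analysis was possible because litters are not labelled and mice carry individual numbers. The count of genes with an unadjusted p under 0.05 was 481, and 1366 without a filter on low counts, where 66 also passed at an adjusted p of 0.05, and leaving out 1 mouse gave 431 to 674. The count of class I genes called stayed at 0 under all other settings and was 0 to 1 when 1 mouse was left out, the 1 being Tap1 without PS19 mouse m659. The median log2 fold change of the 10 genes was −0.13 to 0.13 when 1 mouse was left out, and −0.0022 to 0.0047 under the other settings. The direction of a gene changed in 21 of 140 values under the alternatives, all with 1 mouse left out. The ranges with 1 mouse left out were −0.17 to 0.15 for H2-K1, −0.14 to 0.21 for H2-D1, −0.14 to 0.15 for B2m, −0.14 to 0.0497 for Tap2, −0.0637 to 0.13 for Tapbp, −0.32 to 0.0334 for Psmb8 and −0.20 to 0.32 for Psmb9. H2-T23, Tap1 and Nlrc5 kept their sign, from −0.19 to −0.07, 0.11 to 0.45 and −0.43 to −0.0027. The mean correlation of the 15 pairs was 0.546 with Pearson's r, 0.597 with Spearman's rho, and 0.488 to 0.611 with 1 mouse left out. The causes of these changes were not tested. Nlrc5, Psmb9, Psmb8 and Tap1 rest on 24 to 134 counts per mouse, and the parts of depth and of the number of mice in their intervals were not told apart.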
